A study of Mus musculus with 18 samples.

Results

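Described here are 10 mouse genes that carried a MYC peak at a gene end in nearly every library of the study and that are not genes of ribosome production, translation or nucleotide synthesis. They are Pde4a, Ube2cbp, Pemt, Pdia5, Rnf145, Wipf2, Ifrd2, Hyal3, Ccdc146 and Fam185a, 10 of 21887 protein-coding genes. They were picked because a peak summit lay within 1 kb of an end of the gene, as RefSeq gives it on GRCm38.p6 (the assembly behind mm10), in at least 7 of 9 MYC libraries. Ifrd2 and Hyal3 share 1 peak and so do Ccdc146 and Fam185a, which leaves 8 loci. In all, 37 genes (0.169%) met the same recurrence, so the 10 are not a complete list. B3galt6 with Sdf4, Cand1, Crebzf and Trim65, for example, also reached 7 libraries.

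MYC was mapped by chromatin immunoprecipitation and sequencing in liver tumours of FVB mice. In every group a tTA transactivator driven by the LAP promoter switched on a TRE-MYC transgene once doxycycline was taken away, and tumours were taken at the time of death. WT tumours were LAP-tta-Arid1aflfl;TRE-MYC, with floxed Arid1a and no Cre, at about 55 days. Het tumours were LAP-tta-Arid1afl/+;Alb-cre;TRE-MYC, with 1 floxed allele, at about 70 days. Homo tumours were LAP-tta-Arid1afl/fl with Alb-cre and TRE-MYC, both alleles being floxed, at about 100 days. Albumin-driven Cre acts in hepatocytes and their precursors, and it was absent from WT alone. Cre, age and Arid1a dose cannot be told apart between WT and the other groups, nor age and Arid1a dose between Het and Homo. Each genotype had 3 MYC and 3 input libraries. The labels do not say if replicates were different animals. In tissue, a smaller share of cells with a bound site and less binding per cell cannot be told apart either. Peak lists carry no expression, so the tissue label was not checked with marker genes.

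MYC dimerises with MAX and binds E-boxes, short DNA motifs whose canonical form reads the same on both strands. It is best known for driving genes of ribosome and nucleotide production, but at high levels it occupies many active promoters of other functions. Arid1a encodes a subunit of the SWI/SNF complex, which moves nucleosomes and opens chromatin.

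The list lengths set what can be seen. WT replicates 1 to 3 had 92, 1567 and 4291 peaks, Het 1713, 1869 and 378, and Homo 112, 51 and 303. WT replicate 1 and Homo replicate 2 stood apart with peaks near just 16 and 12 protein-coding genes, so results are also given without them. Input depth was estimated at 3.37 to 6.27 reads per kb and MYC depth at 7.80 to 15.2 reads per kb. The lowest background among a list's peaks was divided by its shortest peak width, and for MYC also by the scaling of its reads. That these stand for the genome-wide background and the fragment length was assumed. In Homo replicate 1 the lowest background rests on 2 peaks. Arid1a itself had a peak at its end only in WT replicate 3 and Het replicate 1, which does not check the deletion.

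The sequences below show the E-box letters found in the promoter windows of 5 genes, close to the summits at Wipf2 and Rnf145 and further off at the other 3. RefSeq promoter windows (250 bases before to 50 after a gene's start, GRCm38.p6) were found for 9 of the 10 genes, all but Ccdc146, with 14 windows in all. They were searched on both strands for CACGTG, the canonical E-box, and for variants of it. The variants were CACGCG, with the related letters CATGTG, and also the letters CATGCG. Capitals mark each match, in the direction of the gene, and a variant on the other strand appears as its reverse complement. The first 3 sequences are the 250 bases before the start (Wipf2, chr11:98863348-98863597, plus strand; Rnf145, chr11:44518706-44518955, plus strand; Pdia5, chr16:35490874-35491123, minus strand). The other two are 30 bases around the match (Ube2cbp, chr9:86464869-86464898, minus strand; Ifrd2, chr9:107587648-107587677, plus strand).
Wipf2: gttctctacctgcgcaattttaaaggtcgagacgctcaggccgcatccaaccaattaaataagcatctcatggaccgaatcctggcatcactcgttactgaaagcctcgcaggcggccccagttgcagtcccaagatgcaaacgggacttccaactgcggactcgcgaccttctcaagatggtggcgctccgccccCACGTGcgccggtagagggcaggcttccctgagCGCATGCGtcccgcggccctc
Rnf145: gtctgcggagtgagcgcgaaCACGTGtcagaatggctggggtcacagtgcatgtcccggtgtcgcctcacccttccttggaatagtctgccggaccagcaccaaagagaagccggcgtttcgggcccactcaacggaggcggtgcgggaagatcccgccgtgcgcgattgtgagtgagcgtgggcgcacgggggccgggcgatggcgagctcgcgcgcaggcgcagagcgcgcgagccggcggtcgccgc
Pdia5: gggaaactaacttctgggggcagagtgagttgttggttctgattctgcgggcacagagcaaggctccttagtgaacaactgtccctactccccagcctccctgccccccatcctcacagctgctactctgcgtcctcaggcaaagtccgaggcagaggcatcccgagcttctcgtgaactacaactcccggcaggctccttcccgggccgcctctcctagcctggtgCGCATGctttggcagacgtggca
Ube2cbp: ctgctacggccgCACGTGctcccaccctgt
Ifrd2: agtagtttcggcCGCGTGtatgtggatctg

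At Wipf2 the canonical E-box lay under the summits. Its centre was 0.5 bp from the median summit and at most 24.5 bp from the summit of any of the 7 libraries with a peak. Overlapping copies of CATGCG, 1 on each strand, lay 32.5 and 34.5 bp from the median summit. At Rnf145 the canonical E-box was 12.5 bp from the median summit and at most 35.5 bp from any of 7 summits. At both genes every listed peak covered the E-box.

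At Ube2cbp the match CACGTG lay 30 bases past the start that RefSeq's window uses and within the peak of all 9 libraries, but 98.5 bp from the median summit. Only the summit of WT replicate 1 came close, at 9.5 bp. Pdia5 held the variant CATGCG, 88.5 bp from the median summit and inside 7 of its 8 peaks. Ifrd2 held CACGCG, which was 435.5 bp from the median summit and inside 4 of its 8 peaks. The windows of Pde4a, Pemt, Hyal3 and Fam185a held none of the 4 motifs, but no summit of these genes fell inside them.

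Thus 5 of 9 genes with a window held any of the 4 motifs and 3 held CACGTG. Per window, as the background is counted, these were 5 of 14 (35.7%) and 3 of 14 (21.4%). Of all 32851 promoter windows, 31.8% held any of the 4, 7.15% held CACGTG and 9.27% held CACGCG, while 14.2% held CATGTG and 6.50% held CATGCG. The 14 windows include many without a summit, so they are not like windows chosen for one. Only Wipf2, Rnf145 (1 of its 3 windows) and Pdia5 had summits of at least 2 libraries inside a window (7, 5 and 3). Each of those windows held a motif. Among the 799 windows with a summit in at least 2 libraries, 88.2% held any of the 4 and 35.7% held CACGTG. In the 285 of these with CACGTG, the median summit was 25.5 bp from it (quartiles 9.5 and 59.5 bp). Wipf2 was among 7 windows with a distance of at most 1 bp, and Rnf145 among 94 with at most 13 bp.

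**Figure D1:**
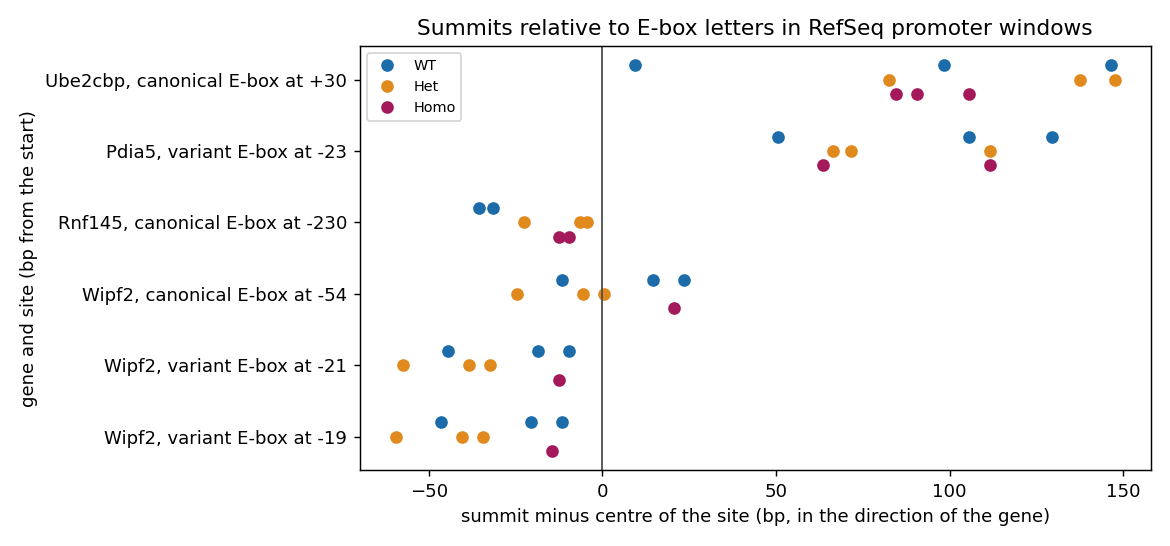
Distance in bp of each library's summit (points, coloured by genotype) from the centre of an E-box match in the promoter window, positive in the direction of the gene. Summits of Wipf2 and Rnf145 lie within 24.5 and 35.5 bp of the canonical site, whereas most summits of Ube2cbp and Pdia5 lie further downstream. The Ifrd2 match, 435.5 bp from its median summit, is not drawn.

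Of 72 possible pairs of locus and library, 64 had a peak, and of the 8 that did not, 3 were in WT replicate 1, 4 in Homo replicate 2 and 1 in Homo replicate 3. Every locus had a peak in all 3 Het libraries (160 genes, 0.731% of all, had one). In WT 6 of 10 genes had one in all 3 libraries (0.0685% of all genes) and in Homo 5 of 10 (0.032%). The genes with a peak per library numbered 8.67 ± 2.31 for WT tumours, 10 ± 0 for Het and 8 ± 2.65 for Homo (SD, n = 3). Since recurrence chose the genes, these counts describe the choice and no test was made. Over all genes, the share with a peak was 0.0731%, 4.86% and 14.1% in the WT libraries, 5.58%, 6.14% and 0.854% in Het, and 0.324%, 0.0548% and 0.918% in Homo. Without WT replicate 1 and Homo replicate 2, 9 of the 10 genes had a peak in all of the other 7 libraries, as did 32 genes (0.146%) in all, and Wipf2 was the exception. Just outside the limit, 77 genes had a peak in 6 libraries, with median folds of 5.14 to 14.8. Of these, 72 lacked one in both WT replicate 1 and Homo replicate 2. The members just inside it, Rnf145 and Wipf2, had median folds of 8.07 and 11.2.

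The values that follow are the authors' fold over the local background at the summit, given in replicate order. Some are given with the number of MYC reads there and the background in input reads, both solved from the deposited fold and p-value. A rank of 1 is the highest fold of a list, and ranks in lists of different length are set side by side only. The first 3 members described take part in lipid metabolism and signalling. Pde4a encodes a phosphodiesterase that breaks down cyclic AMP. Pemt encodes the liver enzyme that makes phosphatidylcholine by methylating phosphatidylethanolamine. Rnf145 encodes an ER ubiquitin ligase that takes part in sterol control.

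Pde4a (chromosome 9, 21165700 to 21213248) was 1 of 3 genes (0.0137%) with a peak in all 9 libraries, with Ube2cbp and Ncl. Its folds were 4.57, 22.9 and 12.4 in WT, 17.1, 20.2 and 13.2 in Het, and 6.73, 5.34 and 8.64 in Homo. It ranked 20 of 1567 in WT replicate 2 and 15 of 1869 in Het replicate 2, but 90 of 92 in WT replicate 1 and 49 of 51 in Homo replicate 2. The 3 Het folds lay above the 3 Homo folds, and WT spanned both. Its summits lay 500 to 544 bp before the gene, from 21165156 to 21165200. They fell inside the lncRNA gene Gm36118 on the opposite strand, whose 5′ end at 21165668 was 486 bp from the median summit. A smaller peak about 3.7 kb further upstream, inside Gm36118, was listed in WT replicates 2 and 3 and Het replicates 1 and 2 (folds 7.31, 3.44, 6.05 and 8.64). WT replicate 2 also had a weak peak of fold 3.59 near the far end of Pde4a.

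Pemt (chromosome 11, 59970614 to 60046561) had the highest fold of the set. It was 15.9 and 12.6 in WT replicates 2 and 3, 16.3, 26.1 and 14.3 in Het, and 3.59, 9.90 and 13.3 in Homo. No peak was listed in WT replicate 1. It ranked 5 of 1869 in Het replicate 2 and 11 of 303 in Homo replicate 3, against 108 of 112 in Homo replicate 1. The Het folds again lay above the Homo folds. In Homo replicate 1 the summit held 82 MYC reads (exact Poisson 95% interval 65.2 to 102), against a local background of 9 input reads. In Homo replicate 3 it held 119 MYC reads against 1.58. The summits, from 60046449 to 60046491, lay 70 to 112 bp inside the 5′ end of the gene. The 2 promoter windows searched for E-boxes use other starts, at 60040188 and 60037005, which lie kilobases downstream of these summits. The sequence under the summits was therefore not searched.

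Rnf145 (chromosome 11, 44518793 to 44565520) had folds of 10.9 and 16.9 in WT replicates 2 and 3, 15.1, 7.15 and 8.07 in Het, and 7.56 and 6.89 in Homo replicates 1 and 3. It was not listed in WT replicate 1 or Homo replicate 2. Homo and Het folds overlapped. It ranked 49 of 1713 in Het replicate 1 but 955 of 1869 in Het replicate 2, where the local background was 5 input reads against 1.37. Its summits lay 69 to 100 bp before the gene's start, from 44518693 to 44518724, next to the E-box shown above.

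Pdia5, Ube2cbp and Wipf2 work in protein folding, ubiquitin transfer and the actin skeleton. Pdia5 encodes a disulfide isomerase of the ER, Ube2cbp (also called Ube3d) a ubiquitin ligase that binds the conjugating enzyme Ube2c, and Wipf2 a partner of WASP proteins in actin assembly.

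Pdia5 (chromosome 16, 35397308 to 35490919) was the weakest locus by fold, with a median of 6.06. The folds were 3.69, 11.7 and 10.4 in WT, 15.2, 6.87 and 4.02 in Het, and 4.42 and 5.25 in Homo replicates 1 and 3. It ranked last in WT replicate 1 (92 of 92) and 371 of 378 in Het replicate 3, against 46 of 1713 in Het replicate 1. In Het replicate 2 it ranked 1030 of 1869. It had the lowest fold of the 8 loci in WT replicates 1 and 3, Het replicates 2 and 3 and Homo replicate 3. Its summits, from 35490764 to 35490843, were 76 to 155 bp inside the gene's 5′ end. The read counts did not set it apart. In Het replicate 2 its summit held 116 MYC reads and in Het replicate 1 174, the most of any locus and library, against local backgrounds of 7 and 2.34 input reads.

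Ube2cbp (chromosome 9, 86307234 to 86464976) had a peak in all 9 libraries. Folds were 5.15, 18.8 and 25.7 in WT, 9.92, 16.3 and 5.30 in Het, and 8.40, 5.81 and 9.28 in Homo. All 3 genotypes overlapped. It ranked 12 of 4291 in WT replicate 3 and 314 of 378 in Het replicate 3, where the local background was 6 input reads. Its summits spread over 138 bp, from 86464736 to 86464874, the widest of the 8 loci, and lay 102 to 240 bp inside the 5′ end. The summit of WT replicate 1 was the outlying one. WT replicate 3 listed a second peak, of fold 9.96, at 2.2 kb outside the gene.

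Wipf2 (chromosome 11, 98863598 to 98905578) had folds of 9.01, 16.03 and 22.0 in WT, 11.2, 17.2 and 8.35 in Het, and 7.13 in Homo replicate 1. It ranked 25 of 4291 in WT replicate 3 and 43 of 92 in WT replicate 1. It was the highest of the 5 loci listed in the latter, and it was not listed in Homo replicates 2 and 3. The list of Homo replicate 3 reached down to a −log10 p of 6.41, against 14.2 for Wipf2 in Homo replicate 1. The estimated MYC depth differed between these libraries (12.4 and 8.69 reads per kb), so these values do not show why no peak was listed. The peaks of Wipf2 were 179 to 319 bp wide, with the lowest median width of the set (284 bp). Summits fell from 98863522 to 98863570, which is 28 to 76 bp before the start.

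The other 4 genes shared their peaks in pairs. Ifrd2 encodes a relative of the interferon-related regulator Ifrd1, and its protein has been found on idle ribosomes, so its place outside translation rests on how pathways are listed. Hyal3 is a member of the hyaluronidase family. Ccdc146 encodes a coiled-coil protein of centrioles and the sperm flagellum.

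The peak of Ifrd2 and Hyal3 (chromosome 9, 107587718 to 107593038 and 107581296 to 107587359, both on the plus strand) lay inside Ifrd2, 361 to 392 bp from its start, and 720 to 751 bp past the 3′ end of Hyal3. The start of Hyal3 was more than 6 kb away and had no peak within 1 kb. The folds were 11.9 and 16.4 in WT replicates 2 and 3, 9.76, 16.8 and 6.37 in Het, and 8.93, 7.48 and 6.26 in Homo. WT replicate 1 had none. Het and Homo folds overlapped. It ranked 17 of 112 in Homo replicate 1 and 234 of 378 in Het replicate 3. In Homo replicate 2 its summit held 40 reads (exact Poisson 95% interval 28.6 to 54.5), the fewest of any locus and library. Peak widths ran from 239 bp in Homo replicate 3 to 740 bp in WT replicate 3, yet the summits stayed within 31 bp.

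At Ccdc146 and Fam185a (chromosome 5, 21292422 to 21424677 and 21424861 to 21488271) the summits were at 21425397 to 21425438. That is 536 to 577 bp inside Fam185a from its start and 720 to 761 bp from the end of Ccdc146. Folds were 7.69, 10.8 and 11.8 in WT, 15.6, 16.2 and 12.98 in Het, and 9.51 and 6.74 in Homo replicates 1 and 3. The 3 Het folds lay above the other 5. Scaled by the lowest background of each list (a scale taken up again after the folds), WT replicate 3, at 64.3, lay among the Het values of 54.1, 65.7 and 49.7. The others stayed below Het, with 32.1 and 46.2 in WT replicates 1 and 2 and 42.4 and 47.8 in Homo replicates 1 and 3. The shared peak had the highest fold of the 8 loci in Homo replicate 1, at rank 10 of 112. Homo replicate 2 had no peak. Its highest and lowest fold were 2.40 times apart, the smallest ratio of the set.

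**Figure D2:**
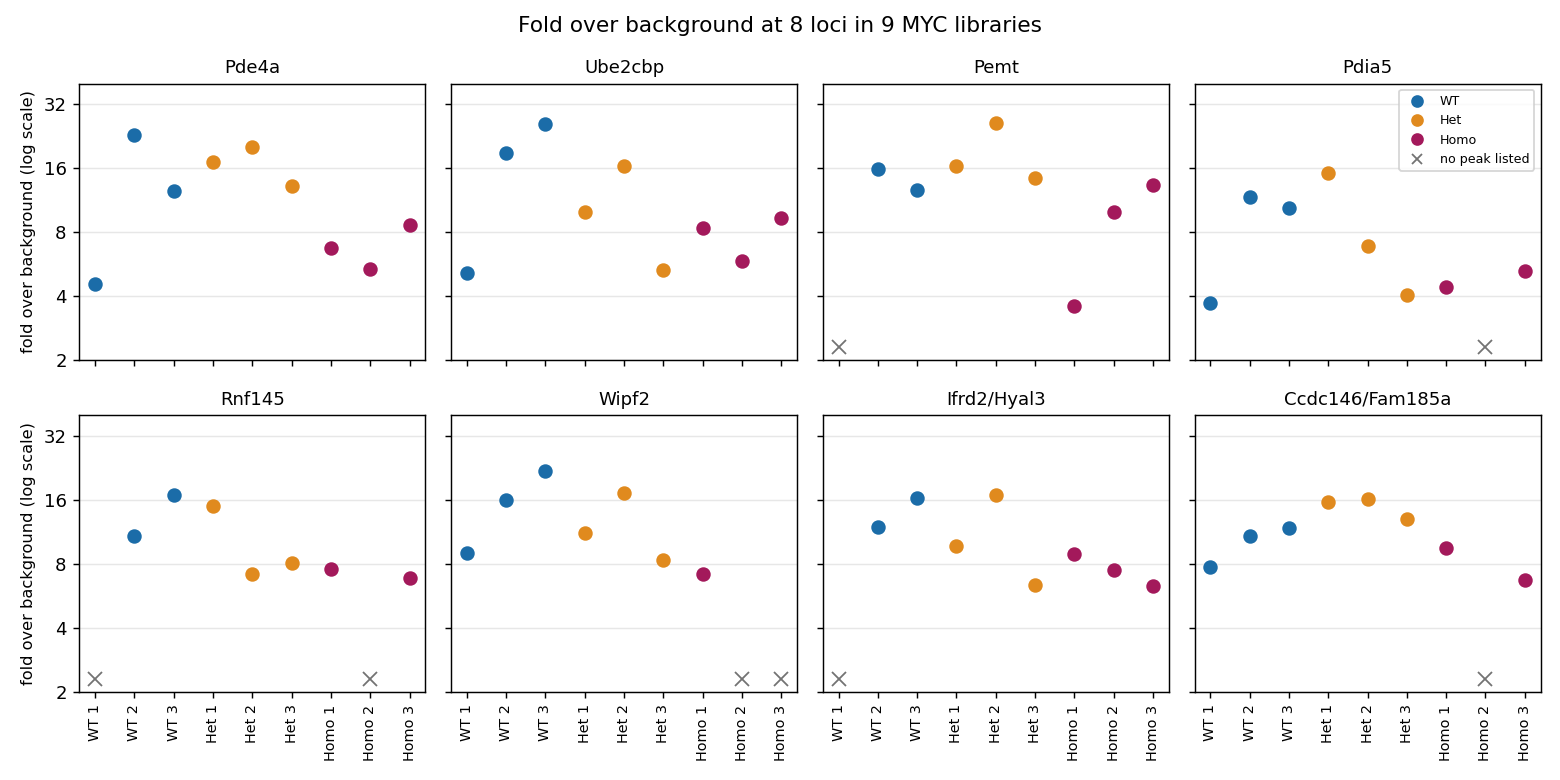
The authors' fold over local background (log scale) at each of the 8 loci in the 9 MYC libraries, coloured by genotype, with a grey cross where no peak was listed. Folds run from 3.59 (Pemt, Homo replicate 1) to 26.1 (Pemt, Het replicate 2), and 7 of the 8 crosses stand in WT replicate 1 and Homo replicate 2.

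No locus kept a fixed place in the lists. Of the 64 peaks, 46 (71.9%) had a fold above the median of their list and 32 were in its upper 10%. By library, the median share of other peaks with a lower fold was 6.59%, 94.9% and 95.9% in WT, 97.3%, 98.0% and 74.1% in Het, and 60.4%, 17.0% and 52.0% in Homo. All 8 loci were above the middle of the lists of WT replicates 2 and 3 and Het replicate 1, and 6 of 8 in Het replicate 2, where Pdia5 and Rnf145 were not. In WT replicate 1 and Homo replicate 2 only 1 of 5 and 1 of 4 stood above the middle (Wipf2 and Pemt). Over libraries, the median of this share was highest at Pemt (95.7%) and lowest at Pdia5 (31.4%), and over the 8 loci it was 89.2%. Without WT replicate 1 and Homo replicate 2 this last value was 90.2%. Over the 24 other loci with a peak in at least 7 libraries, the median was 76.5% (23.2% to 98.0%). By library, the median of those loci was higher than that of the members in WT replicate 1 and Homo replicates 2 and 3. In the remaining libraries it was lower. Recurrence chose both sets, and its part in their high places in the long lists was not tested.

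**Figure D3:**
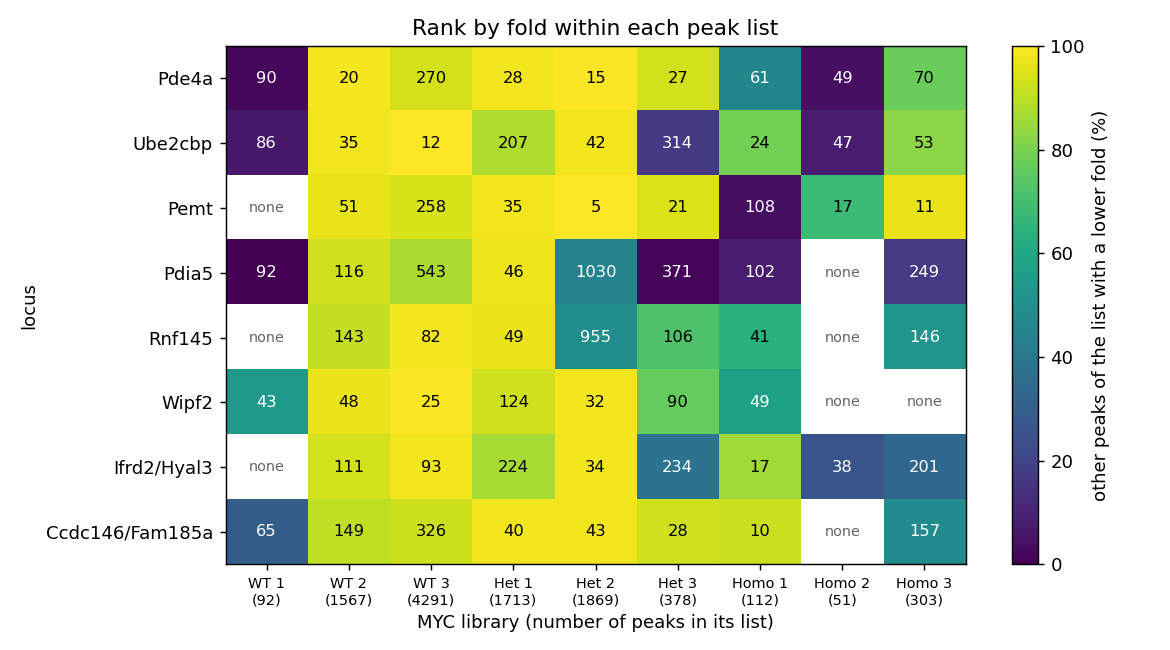
Rank by fold (number in each cell, 1 is the highest) of the 8 loci in the peak list of each MYC library, with the list's length under its name and the share of other peaks with a lower fold as colour. Most cells of WT replicates 2 and 3 and Het replicates 1 and 2 are near the top, whereas WT replicate 1 and Homo replicate 2 hold ranks such as 90 of 92 and 49 of 51.

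Fold divides by the local background, and that background is a few input reads. It was solved for 63 of the 64 peaks, all but Ifrd2 with Hyal3 in Het replicate 3, and ran from 0.896 to 9 input reads, against 40 to 174 MYC reads at the same summits. Relative to the lowest background of its list, the local background was 2.75 times higher in the median over member peaks (2.14 over all solved peaks) and at most 12.1 times (Pemt in Homo replicate 1). At Pdia5 the median was 7.02 times, the highest of the loci, and at Wipf2 1.65 times, the lowest.

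The same summits were therefore also scaled by the lowest background of each list, which leaves the local input out. On that scale the summit of Pde4a stood 38.4, 55.7 and 44.7 times above background in WT, 54.4, 71.5 and 50.9 in Het, and 34.9, 34.9 and 49.1 in Homo. Its highest and lowest values were 2.05 times apart, against 5.02 for the fold. Pemt ran from 32.9 to 78.0 (2.37 times, against 7.28 for the fold), and the 47.0 of Homo replicate 1 was then close to its other libraries. Pdia5 ran from 34.4 to 74.8, as high as the rest. Over the 8 loci the ratio of highest to lowest was 1.80 to 2.48 on this scale and 2.40 to 7.28 for the fold. In Homo replicate 1 the lowest background rests on 2 peaks.

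**Figure D4:**
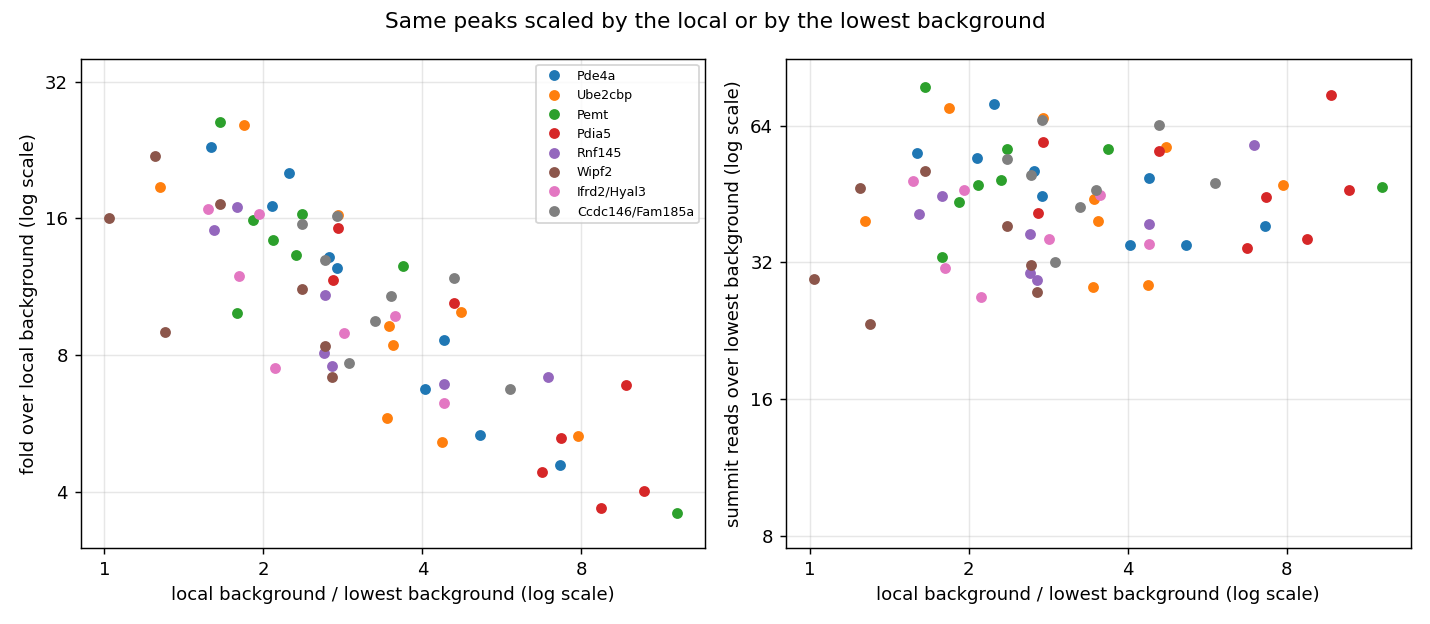
Each point is 1 of 63 peaks at the 8 loci. Fold over the local background (left) and summit reads over the lowest background of the list (right), both on log scales, are plotted against the local background relative to the lowest. Fold falls with the local background by construction, whereas on the right Pemt in Homo replicate 1, at 12.1 times the lowest background, lies at 47.0 among the other points.

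Het and Homo could be set against each other at 7 genes with a peak in all 6 of these libraries. They were Ncl, Psme3 and the members Pde4a, Ube2cbp, Pemt, Ifrd2 and Hyal3, so their share is no background for the members. Ifrd2 and Hyal3 have the same shared peak and values, counted here under both names. All Het folds were above all Homo folds at 3 of the 7 (42.9%), which were Pde4a, Pemt and Ncl (nucleolin, a growth gene). Over the lowest background the 5 genes with all values solved, without Ifrd2 and Hyal3, gave 3 (60%), which were Pde4a, Ube2cbp and Ncl. Pemt then overlapped, with 47.3 to 78.0 in Het and 32.9 to 48.7 in Homo. The estimated input and MYC depths differed between libraries, and their part in this order was not tested. A gene with no listed peak is absent from this count, and no test was made.

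Summit positions were repeatable. The range over libraries was 31 bp at Rnf145 and at Ifrd2 with Hyal3, 41 to 48 bp at Ccdc146 with Fam185a, Pemt, Pde4a and Wipf2, 79 bp at Pdia5 and 138 bp at Ube2cbp. Genotypes were interleaved at 5 of the 8 loci. At Rnf145 the 2 WT summits had the lowest coordinates, and at Pemt the 2 WT summits the highest. At Pde4a the 3 Homo summits (21165156 to 21165166) lay upstream of the others, by as little as 5 bp. At 5 genes, namely Ube2cbp, Pemt, Pdia5, Rnf145 and Wipf2, the summits were within 250 bp of the gene end, and at Pde4a and the shared peaks they were 361 to 761 bp away.

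**Figure D5:**
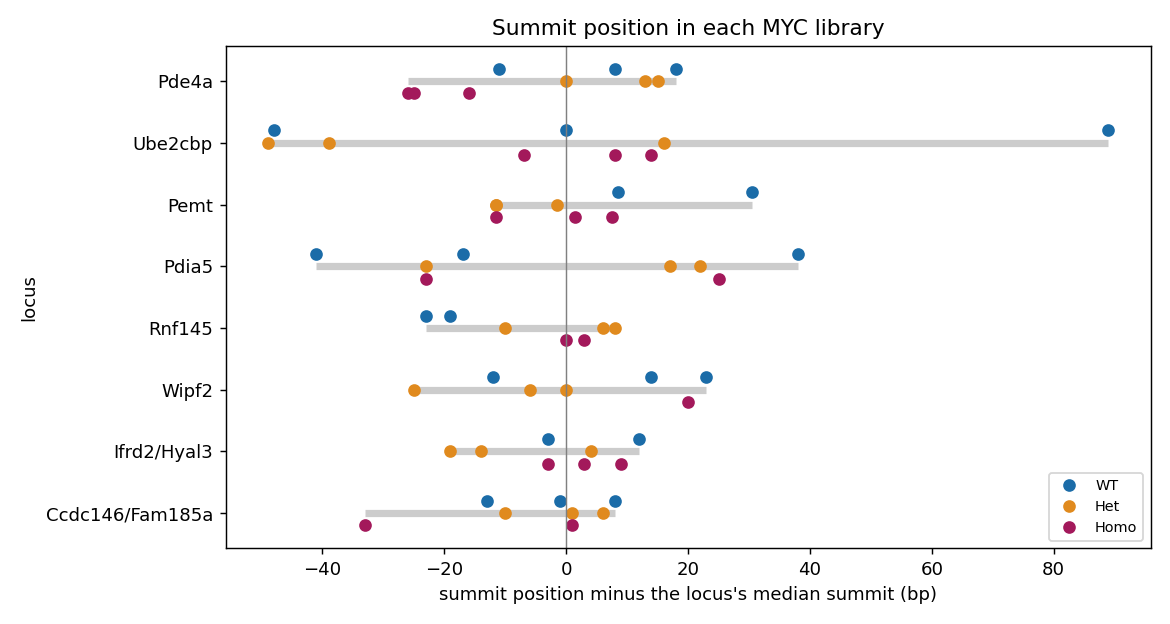
Summit of each library relative to the median summit of its locus, in bp, with points coloured by genotype and a grey bar over the range. The range is 31 bp at Rnf145 and Ifrd2/Hyal3 and 138 bp at Ube2cbp, where WT replicate 1 lies apart.

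The other 27 genes with a peak in at least 7 libraries, at 24 loci, include growth genes such as Ncl, Srm, Rpl32 and Odc1. The median fold of a locus was 6.06 to 13.8 here (median 10.3) and 5.40 to 13.6 there (median 8.68). The summit range was 31 to 138 bp (median 43) here and 29 to 286 bp (median 86.5) there. Scaled by the lowest background the medians were 44.7 and 36.1. These ranges overlap and no test was made, since both sets were chosen from the same peaks.

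Each member was compared only with genes of other loci that had identical presence over the 9 libraries, by the mean absolute difference in log2 fold. There were 2 such genes for Pde4a, 5 for Ccdc146 and Fam185a, 2 for Ifrd2 and Hyal3, 17 for Rnf145 and 6 for Pdia5. The nearer of the 2 to Pde4a was Ube2cbp (0.50 over 9 libraries), and the other was Ncl (0.56). The nearest to Ccdc146 and Fam185a was Srm (0.28 over 8), to Ifrd2 and Hyal3 Psme3 (0.34 over 8), to Rnf145 Rpl10a (0.35 over 7), and to Pdia5 Vars and its neighbour D17H6S56E-5 (0.55 over 8). Pemt was as far from Ifrd2 and Hyal3 as from Psme3 (0.77 over 8), the only 3 genes with its pattern. No other gene had the pattern of Wipf2.

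Relatives of the members were counted in 8 lists, which were named with earlier results of these data known. Their share with a peak is therefore only set beside that of all genes, and no enrichment is read from it. Of 86 such genes, 15 (17.4%) had a peak in 2 or more libraries, beside 1757 of all protein-coding genes (8.03%). Among 16 genes of phosphatidylcholine and methyl supply 5 did. Mat2a, which makes the methyl donor that Pemt uses, had one in 6 libraries (2 of each genotype, folds 6.14 to 14.8). Mat1a of the same list had none in any library. Ahcy, Gnmt and Selenoi had one in 3 and Pisd in 2, all WT or Het. Of 12 disulfide isomerase and ER oxidation genes, P4hb had a peak in 4 libraries and Pdia4 and Txndc5 in 2.

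Of 12 sterol control genes, Insig1 had a peak in 3 libraries (folds 4.31 to 11.2) and Scap in 2. Of 11 genes around Ube2c and the anaphase-promoting complex, Anapc10 had one in 5 libraries and Ube2s and Anapc11 in 2. Hmmr, a hyaluronan receptor, was the only one of 9 hyaluronan genes, with 4 libraries, and Ifrd1, the relative of Ifrd2, also had 4 (folds 5.81 to 11.3). The other Pde genes (0 of 10) and the WASP and Arp2/3 genes (0 of 15) had none in 2 libraries. Apart from Mat2a and Anapc10, these 15 genes had no peak in any Homo library. The Homo lists held 51 to 303 peaks, and the part of list length in this was not tested.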

How the data were processed

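The 9 MYC libraries each have a deposited peak list without a header, in the layout of MACS2. Per the submitters' processing notes, MACS2 2.0.10.20131216, Bowtie2 2.2.3, HOMER and Picard were used with mm10. No source used here states the threshold for calling peaks. The deposited values are the fold over the local background (a ratio), −log10 p, −log10 q, an integer score equal to 10 times −log10 q cut to a whole number, and the summit offset. Groups and replicates came from the sample titles, and the 9 input libraries entered only through the deposited values.

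A summit is the peak start plus the offset, written 1-based. Reads and local background were solved from fold = (scaled reads + 1) / (background + 1) and a Poisson upper tail, which gave 1 whole read number (within 0.005) for 99.5% of 10376 peaks. The method was tested on simulated data. Intervals are exact Poisson at 95% and cover counting error only. Named were all 10 members, other genes in at least 7 libraries and relatives with a peak in at least 2. Also named were Mat1a, beside Mat2a, and up to 3 genes per member of identical presence. Peaks further off were searched up to 10 kb from each member. Members and lists were chosen with earlier results of these data known, so no tests were made. Python 3.11.15, numpy 2.4.6, pandas 2.3.3 and scipy 1.17.1 were used.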

Additional observations from a re-analysis of the deposited data

How the results depend on the processing

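The count of members with a peak in at least 7 libraries was 10 with a 5 kb window or any overlap of the peak. Both settings contain the rule that chose the members, so under them the count could not fall. The count was 10 with a −log10 q of at least 5, 9 with a fold of at least 5 and 5 with a 250 bp window. It was 0 when each list was limited to its 51 highest folds. Left out singly, the libraries gave 8 to 10. The limit stayed at 7 libraries, so only Rnf145 and Wipf2, with peaks in exactly 7, could drop out. Summed over libraries, the members had 26 peaks in WT, 30 in Het and 24 in Homo. These became 13, 15 and 11 within 250 bp and 7, 18 and 13 in lists of 51 peaks, where absence means a lower rank. The 15 relatives became 8 within 250 bp, 9 with a peak in at least 3 libraries and 10 to 15 with a library left out, 10 being without WT replicate 3. Shares over all genes were not counted under these settings. The changes are therefore not set beside those of other genes. The E-box count of 5 genes became 3 for CACGTG alone. The median share of lower peaks moved between 84.9% and 89.7% with a library left out, 88.3% and 92.6% otherwise. Added after seeing the data, the 7 libraries other than WT replicate 1 and Homo replicate 2 held 9 members, and a −log10 p of at least 10 kept 10. No paired analysis was possible because the results come from no test. Depth limits every absence to the threshold of its list.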
